A study of Mus musculus with 9 samples.

Results

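The messenger RNAs described here encode 10 proteins of the muscle growth and wasting pathway: the kinases Akt1 and Akt2, the phosphatases Phlpp1 and Phlpp2, the insulin receptor substrates Irs1 and Irs2, the transcription factors Foxo1 and Foxo3, and the ubiquitin ligases Fbxo32 and Trim63. They were chosen as a list because the protein FKBP5 is known to hold PHLPP on AKT, and they are 10 of 47728 genes listed in the count files and 10 of 12498 genes with enough reads to be tested. The cells were C2C12, a mouse myoblast line whose cells leave division and merge into multinucleate myotubes once serum is taken away. The groups were an Fkbp5 knockdown, an Fkbp4 knockdown and a control, each sampled at days 0, 3 and 5 of differentiation. There was 1 library per genotype and day, 9 in all. The protocol given for all 9 libraries was growth in serum and a switch on day 0 to medium with insulin, transferrin and selenium. Later medium held HS, an abbreviation that the labels do not spell out. How the genes were knocked down, in what kind of control, and whether each knockdown was 1 clone or a pool are not given in the sources used here.

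Insulin and IGF-1 act through receptors that phosphorylate IRS proteins, which recruit PI3-kinase and so switch AKT on. Active AKT promotes protein synthesis and keeps FoxO factors out of the nucleus. PHLPP phosphatases take a phosphate off AKT, and FKBP5 (also called FKBP51), a co-chaperone of Hsp90, brings PHLPP to AKT. When AKT is low, nuclear FoxO switches on Fbxo32 (atrogin-1) and Trim63 (MuRF1), ligases that mark muscle proteins for breakdown and are widely used as readouts of atrophy. The libraries measured RNA, not phosphorylation or protein.

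The libraries held 3932372 to 5568486 counts. Levels are given as normalised CPM, reads scaled to a common library total and for composition. With 3 days standing in for repeats, p-values measure how steady a difference was across these libraries; whether they came from separate cultures is not stated. The knockdowns were visible in the target RNAs. Fkbp5 RNA was 4.47, 3.18 and 4.61 CPM in the Fkbp5 knockdown at days 0, 3 and 5, against 20.1, 7.34 and 14.8 CPM in the control (log2 fold change -1.72, SE 0.24, edgeR adjusted p = 0.00825). Fkbp4 RNA was 60.2, 27.0 and 24.0 CPM in the Fkbp4 knockdown, against 241, 143 and 138 CPM in the control (log2 fold change -2.28, SE 0.12, edgeR adjusted p = 1.9e-05). Mitochondrial genes took 10.1% of the counts in the Fkbp5 knockdown at day 5, and 1.78% to 5.01% in the other 8 libraries. Of 8 markers of myoblasts and myotubes, 8 rose between day 0 and both later days. Of 6 markers of fat cells, Adipoq, Plin1, Lep and Cidec had 0 reads in all 9 libraries, Fabp4 had at most 11 reads, and Pparg, 4.43 to 13.4 CPM, was present in each. Of 6 of bone and cartilage, Ibsp and Acan were at 0 throughout, and Dmp1 had 5 to 26 reads. Of 6 of immune cells and endothelium, Adgre1 and Cdh5 were at 0, Cd68 had 3 to 17 reads and Tek 1 to 8. The summed levels of these 3 lists were at most 13.7, 5.9 and 4.86 CPM in any library.

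Most of the list changed from day 0 to the later days, and 0 of 10 genes passed between a knockdown and the control. The medium changed over the same days, so its effect and that of differentiation cannot be told apart. At day 3 relative to day 0, 6 of the 10 genes rose and 3 fell, where 26.7% of all genes tested rose and 26.1% fell (52.8% in either direction), so calls were common across the transcriptome. At day 5 relative to day 0 the counts were again 6 and 3, where 29.5% of all genes rose and 28.8% fell (58.3% together). The genes that rose on both days were Akt1, Akt2, Foxo1, Foxo3, Fbxo32 and Trim63. Those that fell on both were Irs1, Irs2 and Phlpp2, and Phlpp1 was the one gene that did not pass. The median log2 fold change of the 10 genes was 0.58 on each of the 2 days, against 0.00 and 0.01 over all genes.

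Day 5 relative to day 3 gave 2 calls among the 10 genes, Trim63 higher and Irs1 lower, where 3.74% of all genes were higher and 2.4% lower (6.14% together). Neither knockdown gave a call relative to the control. In the Fkbp5 knockdown 0 of 10 genes passed edgeR's quasi-likelihood test, 0 passed with DESeq2 and 0 with limma. Of all genes, 2.18% passed edgeR. The unadjusted edgeR p was under 0.05 for 3 of the 10, and for 1985 of all 12498 genes. In the Fkbp4 knockdown 0 of 10 passed with each of the 3 tools, and 1.08% of all genes passed edgeR. Here too 3 of the 10 had an unadjusted edgeR p under 0.05, against 2068 of all 12498 genes. Between the knockdowns, 1 of 10 passed, Akt1, which was lower in the Fkbp5 knockdown; 6.21% of all genes were lower there and 13.4% passed in either direction. The 2 knockdown comparisons share the control libraries.

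**Figure D1:**
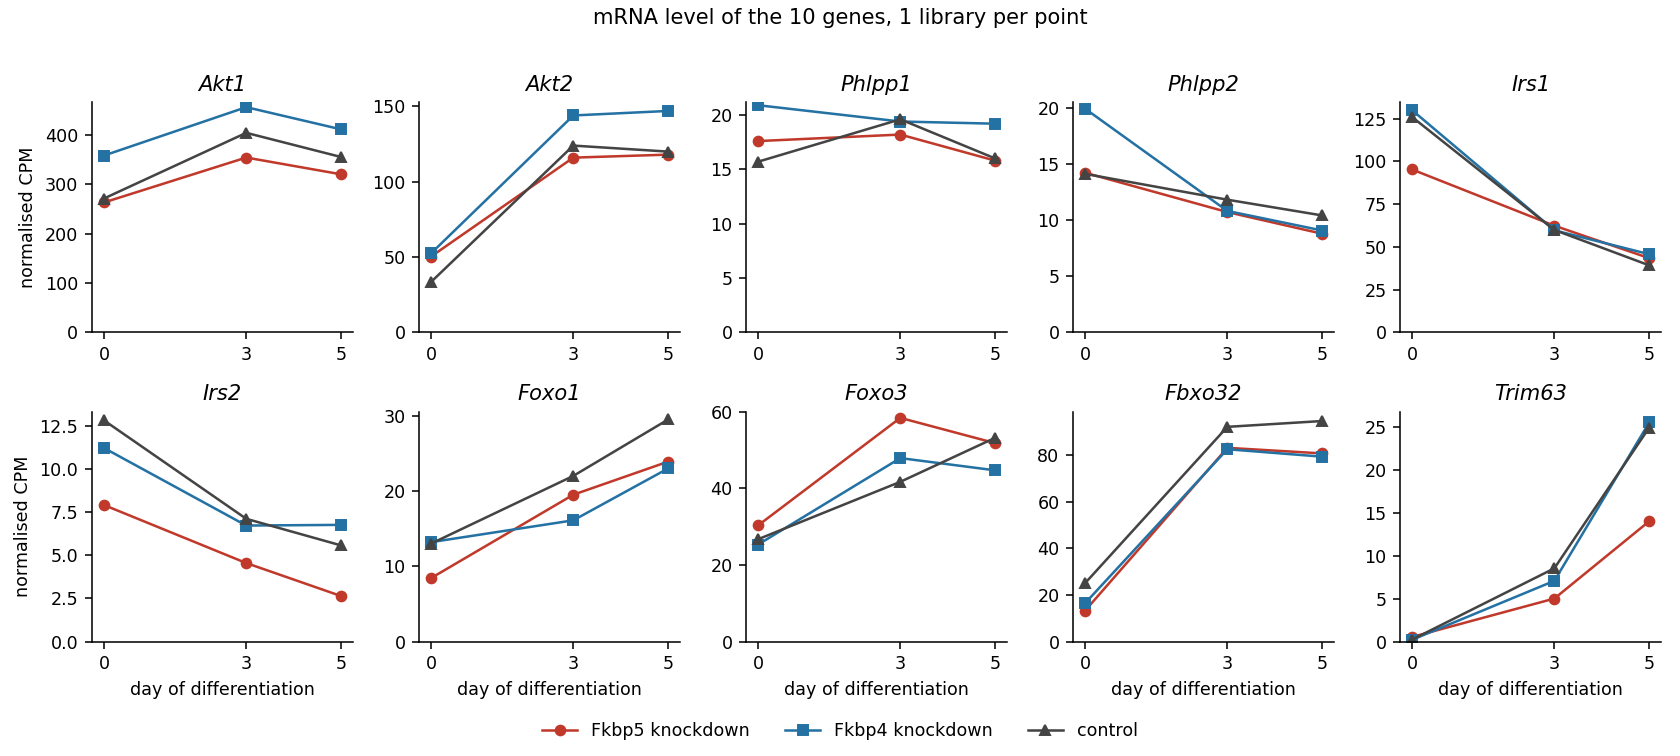
Normalised CPM of the 10 genes (y axis) by day of differentiation (x axis), with 1 library per point; red circles are the Fkbp5 knockdown, blue squares the Fkbp4 knockdown and grey triangles the control. In the 3 genotypes Fbxo32, Trim63 and Akt2 are higher, and Irs1, Irs2 and Phlpp2 lower, at days 3 and 5 than at day 0, and Phlpp1 stays between 15.7 and 20.9 CPM.

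Akt1 (chr12:112653821-112674884, minus strand, build GRCm38) encodes the AKT kinase that most cells express. Its RNA was 263, 354 and 320 CPM at days 0, 3 and 5 in the Fkbp5 knockdown, 358, 456 and 411 CPM in the Fkbp4 knockdown, and 271, 404 and 355 CPM in the control. On each day the Fkbp5 knockdown library was the lowest of the 3 and the Fkbp4 knockdown library the highest. Each genotype had its lowest level at day 0 and its highest at day 3. The rise was 1.37-fold at day 3 (log2 0.45, SE 0.093, edgeR adjusted p = 0.00211) and 1.22-fold at day 5 (log2 0.29, SE 0.093, edgeR adjusted p = 0.0207). The call at day 5 was lost without the Fkbp5 knockdown library of day 5 (0.29, adjusted p = 0.0625), the Fkbp4 knockdown library of day 5 (0.31, adjusted p = 0.0522), or the control library of day 0 (0.23, adjusted p = 0.126) or day 5 (0.29, adjusted p = 0.0628), with upper-quartile scaling in place of TMM (0.24, adjusted p = 0.0529) and without the genotype term (0.28, adjusted p = 0.161), all by edgeR.

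Akt1 was the single gene of the 10 that separated the knockdowns. It was 0.763 times as high in the Fkbp5 knockdown as in the Fkbp4 knockdown (log2 fold change -0.39, SE 0.093, edgeR adjusted p = 0.0225). The same-day ratios behind it were on the same side on the 3 days. Relative to the control, the difference was -0.13 in the Fkbp5 knockdown (95% interval -0.34 to 0.08, edgeR adjusted p = 0.557) and 0.26 in the Fkbp4 knockdown (0.05 to 0.47, edgeR adjusted p = 0.21). The call between the knockdowns was lost without the Fkbp5 knockdown library of day 5 (edgeR adjusted p = 0.0998) and without the Fkbp4 knockdown library of day 0 (0.0748), day 3 (0.0622) or day 5 (0.0821), with log2 fold changes of -0.42 to -0.37 in these 4 fits.

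Akt2 (chr7:27591552-27640826, plus strand, GRCm38) encodes the AKT kinase best known for insulin-stimulated glucose uptake in muscle and fat. Its RNA was 50.3, 116 and 118 CPM at days 0, 3 and 5 in the Fkbp5 knockdown, 52.4, 144 and 147 CPM in the Fkbp4 knockdown, and 33.4, 124 and 120 CPM in the control. The day 0 and later libraries did not overlap, and days 3 and 5 were level. The rise was 2.85-fold at day 3 (log2 1.51, SE 0.126, edgeR adjusted p = 4.22e-06) and 2.85-fold at day 5 (edgeR adjusted p = 3.2e-06), and the day 5 to day 3 difference was 0.00 with a 95% interval of -0.26 to 0.26. Both knockdowns stood above the control at day 0, by 1.51-fold in the Fkbp5 knockdown and with 261 against 151 reads in the Fkbp4 knockdown, but over the 3 days neither difference passed (0.12, edgeR adjusted p = 0.713, and 0.35, edgeR adjusted p = 0.197). The test of whether the Fkbp5 knockdown difference changed from day 0 to the later days gave -0.65 (SE 0.208, unadjusted p = 0.013, edgeR adjusted p = 0.961).

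Per length of transcript, Akt1 was the most abundant of the 10 genes, at 64.2 to 111 RPKM (normalised CPM per kilobase of exon), and Akt2 followed at 4.68 to 20.6 RPKM. Those 2 ranges did not overlap; every other pair of neighbours in the order overlapped. With merged exon lengths the order by mean level was Akt1, Akt2, Fbxo32, Irs1, Foxo3, Trim63, Phlpp1, Foxo1, Phlpp2 and Irs2, the last at 0.416 to 2.03 RPKM. The ratio of Akt2 to Akt1, RPKM over RPKM, at days 0, 3 and 5 was 0.11, 0.189 and 0.212 in the Fkbp5 knockdown, 0.0841, 0.181 and 0.205 in the Fkbp4 knockdown, and 0.0707, 0.177 and 0.194 in the control. It was lowest on day 0 and highest on day 5 in the 3 genotypes, and the day 0 values did not overlap with the later ones.

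Of the exonic sequence of Akt2, 13.3% of the 31-base words recur in other annotated genes, most in the pseudogene Akt2-ps, so the split of its reads depends on how multiply aligned reads were counted, which is not given in the sources used here. The share was 0.0724% for Akt1.

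**Figure D2:**
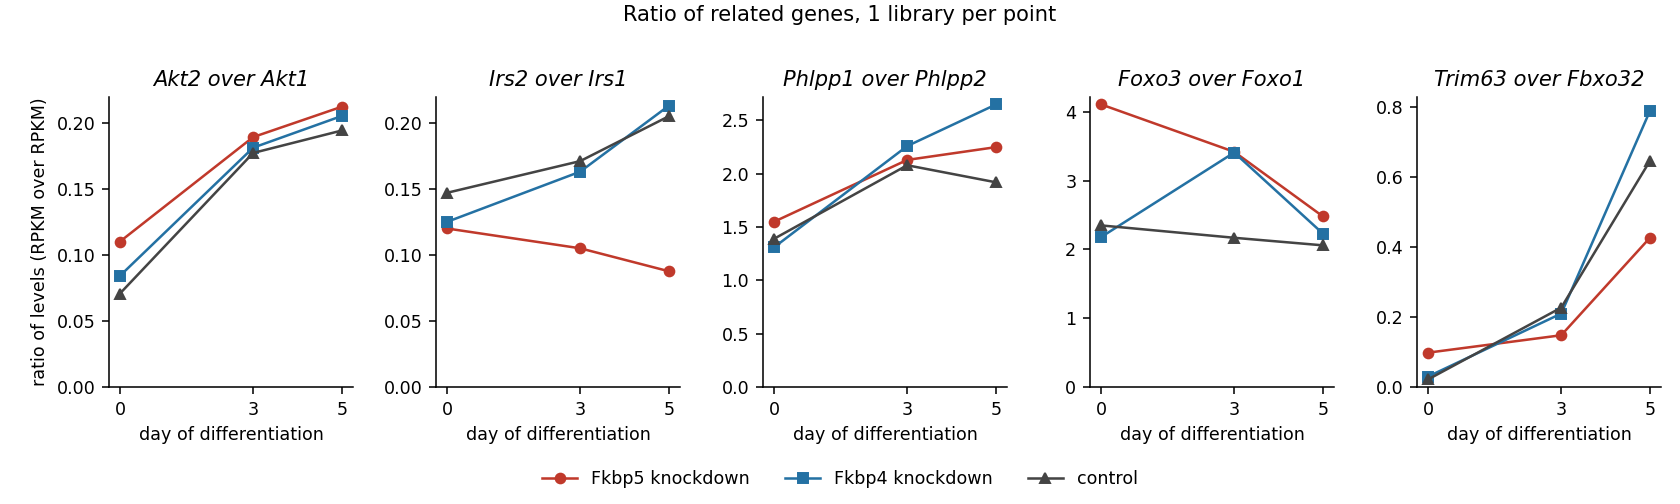
Ratio of the levels per length (RPKM over RPKM, y axis) of 5 pairs of related genes by day of differentiation (x axis), with 1 library per point; red circles are the Fkbp5 knockdown, blue squares the Fkbp4 knockdown and grey triangles the control. Akt2 over Akt1 and Trim63 over Fbxo32 climb from day to day in each genotype, but Trim63 at day 0 rests on 1 or 2 reads. Phlpp1 over Phlpp2 is higher at days 3 and 5 than at day 0. Irs2 over Irs1 at day 5 is 0.0876 in the Fkbp5 knockdown, 0.213 in the Fkbp4 knockdown and 0.205 in the control.

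Of the PHLPP phosphatases, which act against AKT, Phlpp2 fell after day 0 and Phlpp1 did not pass. Phlpp1 (chr1:106171752-106394250, plus strand, GRCm38) was 17.6, 18.2 and 15.8 CPM at days 0, 3 and 5 in the Fkbp5 knockdown, 20.9, 19.4 and 19.2 CPM in the Fkbp4 knockdown, and 15.7, 19.6 and 16.0 CPM in the control. It showed no call in any comparison. The difference was 0.08 at day 3 (95% interval -0.23 to 0.39) and -0.09 at day 5 (-0.40 to 0.23), both relative to day 0. It was 0.01 in the Fkbp5 knockdown (-0.31 to 0.33) and 0.22 in the Fkbp4 knockdown (-0.10 to 0.53), both relative to the control.

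Phlpp2 (chr8:109868542-109944671, plus strand, GRCm38) was 14.2, 10.7 and 8.77 CPM at days 0, 3 and 5 in the Fkbp5 knockdown, 19.9, 10.8 and 9.06 CPM in the Fkbp4 knockdown, and 14.1, 11.8 and 10.4 CPM in the control. Every genotype was highest at day 0 and lowest at day 5, on 40 to 99 reads a library. It fell by 0.54 on the log2 scale at day 3 (SE 0.183, edgeR adjusted p = 0.0297) and by 0.77 at day 5 (SE 0.188, edgeR adjusted p = 0.00475). The call at day 3 was lost with DESeq2 (adjusted p = 0.125) and, by edgeR, without the Fkbp5 knockdown library of day 0 or day 3 (adjusted p = 0.0551 for each), the Fkbp4 knockdown library of day 0 (-0.33, adjusted p = 0.206) or day 3 (-0.42, adjusted p = 0.154), or the control library of day 3 (-0.57, adjusted p = 0.0624). Relative to the control, Phlpp2 differed by -0.12 in the Fkbp5 knockdown (95% interval -0.55 to 0.30) and by 0.08 in the Fkbp4 knockdown (-0.33 to 0.49). Per length, the ratio of Phlpp1 to Phlpp2 at days 0, 3 and 5 was 1.55, 2.13 and 2.25 in the Fkbp5 knockdown, 1.31, 2.26 and 2.65 in the Fkbp4 knockdown, and 1.39, 2.08 and 1.92 in the control.

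The receptor substrates fell from day 0 to the later days. Irs1 (chr1:82233101-82291416, minus strand, GRCm38), the main docking protein of the insulin and IGF-1 receptors in muscle, was 95.3, 62.4 and 43.4 CPM at days 0, 3 and 5 in the Fkbp5 knockdown, 130, 59.7 and 45.7 CPM in the Fkbp4 knockdown, and 126, 59.9 and 39.2 CPM in the control. The 3 days did not overlap. Relative to day 0 it fell by 0.95 on the log2 scale at day 3 (SE 0.119, edgeR adjusted p = 7.56e-05) and by 1.45 at day 5 (SE 0.123, edgeR adjusted p = 3.56e-06). From day 3 to day 5 it dropped by 0.50 (SE 0.126, edgeR adjusted p = 0.041). That last call did not survive leaving out any 1 of 7 libraries: the edgeR adjusted p was 0.103 and 0.065 without the Fkbp5 knockdown libraries of days 3 and 5, 0.075 and 0.132 without those of the Fkbp4 knockdown, and 0.0549, 0.127 and 0.197 without the control libraries of days 0, 3 and 5, with values of -0.58 to -0.41.

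Relative to the control, Irs1 in the Fkbp5 knockdown was lower in 1 library, day 0, at 362 against 572 reads (log2 ratio -0.41, 95% counting interval -0.60 to -0.21), while the ratios at days 3 and 5 were 0.06 and 0.15. Over the 3 days the difference was -0.08 (edgeR adjusted p = 0.809). Of the exonic words of Irs1, 30.7% recur in other genes, nearly all in Gm9747, which overlaps it by 2822 bases on the opposite strand and had 0 reads in every library. The kit does not mark strand, so reads of the 2 cannot be told apart in that stretch. Whether such reads were counted for Irs1 is not given in the sources used here. Its level per length, its place in the order and its ratio with Irs2 depend on that.

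Irs2 (chr8:10984681-11008458, minus strand, GRCm38), a substrate best known for insulin signalling in liver and pancreatic islets, was the scarcest of the 10 genes per length. Its RNA was 7.90, 4.54 and 2.63 CPM at days 0, 3 and 5 in the Fkbp5 knockdown, 11.2, 6.71 and 6.75 CPM in the Fkbp4 knockdown, and 12.8, 7.10 and 5.56 CPM in the control. The Fkbp5 knockdown library was the lowest on each of the 3 days. Relative to day 0 it fell by 0.80 on the log2 scale at day 3 (SE 0.221, edgeR adjusted p = 0.0109) and by 1.11 at day 5 (SE 0.228, edgeR adjusted p = 0.00172). The call at day 3 was lost with DESeq2 (adjusted p = 0.0624) and, by edgeR, without the Fkbp4 knockdown library of day 3 (-0.73, adjusted p = 0.06) or the control library of day 3 (-0.77, adjusted p = 0.0514).

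Among the 10 genes, Irs2 had the largest fitted difference between the Fkbp5 knockdown and the control, 0.586 times the control level (log2 fold change -0.77, SE 0.237, 95% interval -1.30 to -0.25). It did not pass the adjusted threshold (unadjusted p = 0.00818, edgeR adjusted p = 0.138). The reads were few: 30, 20 and 12 in the Fkbp5 knockdown at days 0, 3 and 5, against 58, 30 and 23 in the control. The same-day log2 ratios were -0.70, -0.64 and -1.08, and at day 3 the counting interval spanned 0. In the Fkbp4 knockdown the difference was -0.02 (95% interval -0.50 to 0.47). Directly between the knockdowns it was -0.75 (edgeR adjusted p = 0.0573), a value that passed when genes with low counts were kept (-0.78, edgeR adjusted p = 0.0316).

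**Figure D3:**
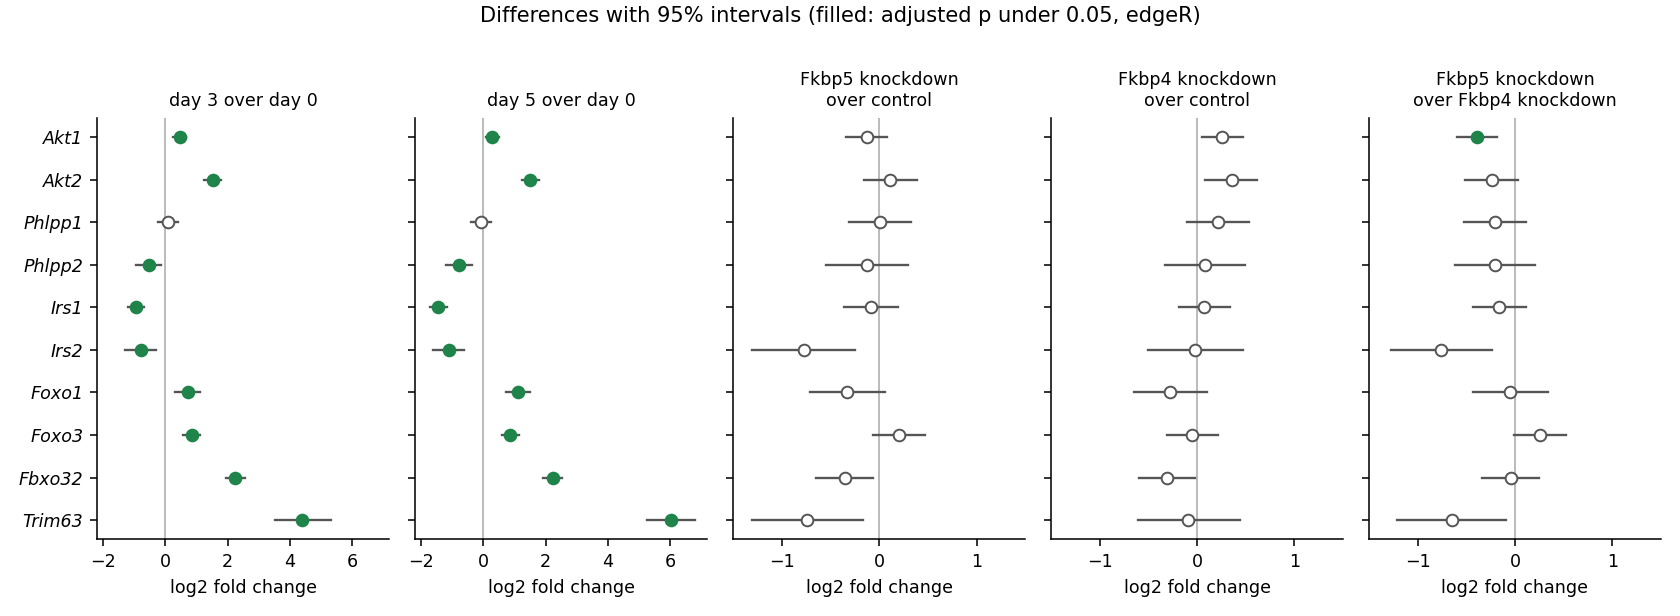
Log2 fold changes of the 10 genes (x axis) with 95% intervals from edgeR, for day 3 and day 5 over day 0, each knockdown over the control, and the Fkbp5 over the Fkbp4 knockdown; filled circles passed an adjusted p of 0.05. The x axes of the 2 day panels run wider than those of the 3 genotype panels. Trim63 and Fbxo32 rose most with time, and Akt1 is the single filled circle between genotypes.

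FoxO factors are the transcription factors that AKT holds inactive. Foxo1 (chr3:52268336-52353221, plus strand, GRCm38) was 8.42, 19.5 and 23.9 CPM at days 0, 3 and 5 in the Fkbp5 knockdown, 13.2, 16.1 and 23.0 CPM in the Fkbp4 knockdown, and 13.0, 22.0 and 29.5 CPM in the control. Each genotype climbed from day to day. The rise was 1.64-fold at day 3 (log2 0.71, SE 0.179, edgeR adjusted p = 0.00651) and 2.18-fold at day 5 (log2 1.12, SE 0.176, edgeR adjusted p = 0.000274), both relative to day 0. Relative to the control, it differed by -0.33 in the Fkbp5 knockdown (95% interval -0.71 to 0.06) and by -0.28 in the Fkbp4 knockdown (-0.65 to 0.10), neither past the threshold (edgeR adjusted p = 0.395 and 0.446).

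Foxo3 (chr10:42181841-42276755, minus strand, GRCm38), the FoxO factor best known for driving the atrophy ligases, was 30.3, 58.4 and 51.8 CPM at days 0, 3 and 5 in the Fkbp5 knockdown, 25.3, 47.9 and 44.7 CPM in the Fkbp4 knockdown, and 26.7, 41.7 and 53.2 CPM in the control. Day 0 did not overlap with the later days. The rise was 1.8-fold at day 3 (log2 0.84, SE 0.123, edgeR adjusted p = 0.000213) and 1.82-fold at day 5 (log2 0.86, SE 0.124, edgeR adjusted p = 0.000147). At day 3 alone, Foxo3 had 257 reads in the Fkbp5 knockdown and 176 in the control (log2 ratio 0.49, 95% counting interval 0.20 to 0.77), but the ratio was -0.04 at day 5. The 3-day difference was 0.21 (95% interval -0.06 to 0.47, edgeR adjusted p = 0.458). Per length, Foxo3 exceeded Foxo1 in all 9 libraries, by 2.06-fold to 4.11-fold.

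Of the ligases, Fbxo32 (chr15:58175879-58214932, minus strand, GRCm38) was already present in myoblasts. Its RNA was 13.2, 83.1 and 80.7 CPM at days 0, 3 and 5 in the Fkbp5 knockdown, 16.4, 82.5 and 79.3 CPM in the Fkbp4 knockdown, and 25.0, 92.1 and 94.6 CPM in the control. Days 3 and 5 were level and far from day 0. The rise was 4.76-fold at day 3 (log2 2.25, SE 0.141, edgeR adjusted p = 5.68e-07) and 4.69-fold at day 5 (edgeR adjusted p = 4.4e-07).

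Both knockdown libraries had less Fbxo32 than the control library on each day. Over the 3 days the difference was -0.35 in the Fkbp5 knockdown (95% interval -0.65 to -0.06, unadjusted p = 0.0234, edgeR adjusted p = 0.222) and -0.31 in the Fkbp4 knockdown (-0.60 to -0.02, unadjusted p = 0.039, edgeR adjusted p = 0.277), so neither passed. The gap was widest at day 0, with 50 reads in the Fkbp5 knockdown and 113 in the control (log2 ratio -0.92, 95% counting interval -1.43 to -0.43), and with 82 reads in the Fkbp4 knockdown (-0.60, -1.03 to -0.18). The test of a change in the Fkbp5 knockdown difference between day 0 and the later days gave 0.73 (SE 0.252, unadjusted p = 0.0186, edgeR adjusted p = 0.961). These tests leave 2 residual degrees of freedom. Of the 10 genes, 0 passed with edgeR in either knockdown, where 0.032% and 0.04% of all genes passed. An unadjusted edgeR p under 0.05 was reached by 3 and 0 of the 10 in the Fkbp5 and the Fkbp4 knockdown. Over all 12498 genes the numbers were 573 and 386.

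Trim63 (chr4:134315120-134329629, plus strand, GRCm38) was nearly silent in myoblasts and switched on during differentiation. It had 2, 22 and 64 reads at days 0, 3 and 5 in the Fkbp5 knockdown, 1, 40 and 121 in the Fkbp4 knockdown, and 1, 36 and 103 in the control. In CPM these were 0.526, 5.00 and 14.0 in the Fkbp5 knockdown, 0.201, 7.06 and 25.5 in the Fkbp4 knockdown, and 0.221, 8.52 and 24.9 in the control. The day 0 values rest on 1 or 2 reads, which is under the limit of 3 counts (0.539 to 0.763 CPM by library) that an undetected gene could reach. Summed over genotypes, 98 reads at day 3 against 4 at day 0 gave a depth-adjusted ratio of 22.8 (95% counting interval 8.64 to 85.4), and 288 reads at day 5 gave 71.3 (27.6 to 264). Both later days passed relative to day 0 (edgeR adjusted p = 8.36e-06 and 2.47e-07). Trim63 was also the one gene of the list called higher at day 5 than at day 3, by 3.11-fold (log2 1.64, SE 0.208, edgeR adjusted p = 0.00188), although limma with voom gave an adjusted p of 0.107 for this step. Foxo1, with the next highest value, differed by 0.41 over the same step (95% interval 0.04 to 0.77, edgeR adjusted p = 0.175).

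In the Fkbp5 knockdown Trim63 was below the control at day 3 (log2 ratio -0.77, 95% counting interval -1.61 to 0.03) and at day 5 (-0.83, -1.30 to -0.36). The fitted difference was -0.74 (SE 0.255, unadjusted p = 0.0153) and did not pass (edgeR adjusted p = 0.186). In the Fkbp4 knockdown it was -0.09 (95% interval -0.61 to 0.44). Markers of myotubes moved the same way: of 8 muscle markers, Ckm, the muscle creatine kinase (log2 fold change -1.10, edgeR adjusted p = 0.00429), and Tnnt3, a fast troponin T (-0.84, edgeR adjusted p = 0.039), fell in the Fkbp5 knockdown relative to the control, and 6 did not pass. Their median difference was -0.59, and the summed level of the 8 markers ran over the days from 1200 to 10400 CPM in the Fkbp5 knockdown, from 1180 to 14600 CPM in the Fkbp4 knockdown and from 1180 to 13800 CPM in the control. The part of these markers in the Trim63 difference was not tested, and in bulk RNA fewer myotubes and less RNA per myotube cannot be told apart.

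Per length, the ratio of Trim63 to Fbxo32 at days 3 and 5 was 0.148 and 0.427 in the Fkbp5 knockdown, 0.21 and 0.79 in the Fkbp4 knockdown, and 0.227 and 0.647 in the control. With the merged exon length Fbxo32 was the more abundant ligase in all 9 libraries, but with the length of the longest transcript the ratios at day 5 were 0.643 in the Fkbp5 knockdown, 1.19 in the Fkbp4 knockdown and 0.974 in the control. Which ligase was the more abundant at day 5 therefore depends on the length used.

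**Figure D4:**
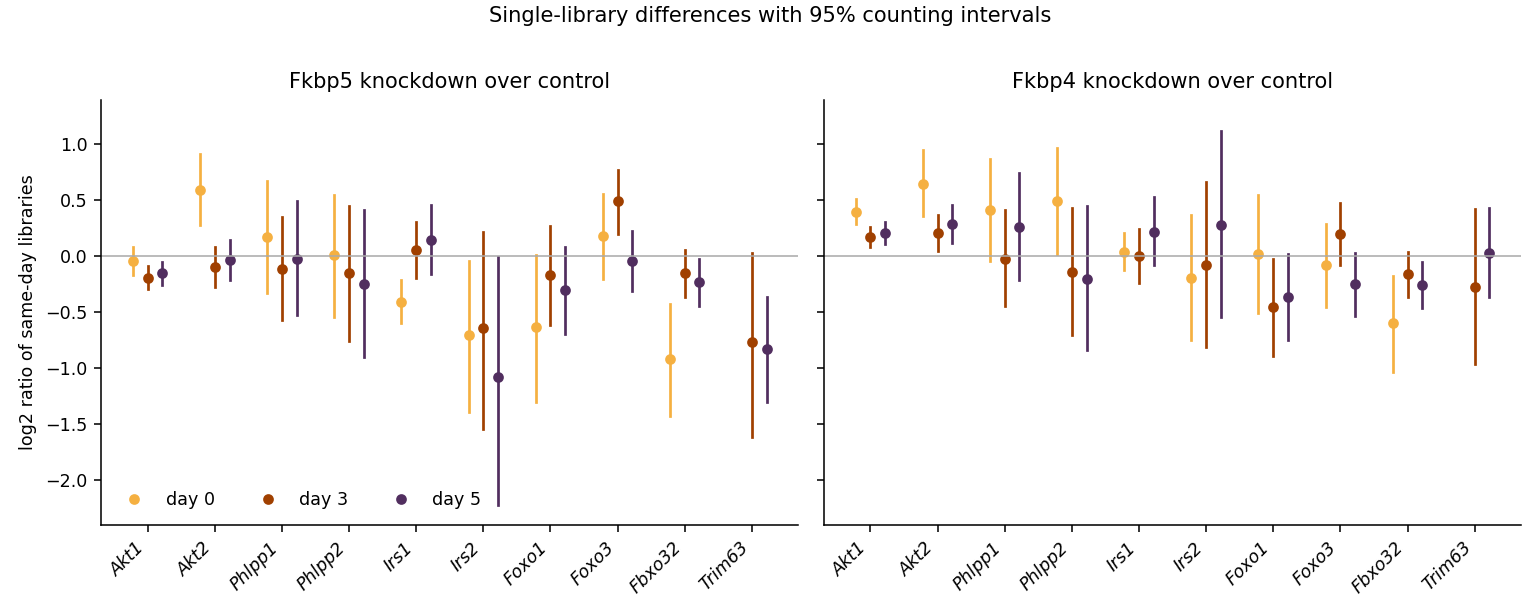
Log2 ratio of normalised CPM between a knockdown library and the control library of the same day (y axis) for the 10 genes (x axis), with 95% counting intervals; the left panel is the Fkbp5 and the right panel the Fkbp4 knockdown, colours mark the day, and Trim63 at day 0 (1 or 2 reads) is not drawn. Irs2 lies below 0 on the 3 days in the Fkbp5 knockdown, Akt1 and Akt2 lie above 0 on the 3 days in the Fkbp4 knockdown, and Fbxo32 lies below 0 throughout.

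Taken library by library, none of the 10 genes differed by 2-fold between a knockdown and the control of the same day with 50 or more reads in the larger library; of genes at that depth, 1.75%, 2.13% and 2.8% did in the Fkbp5 knockdown at days 0, 3 and 5, and 1.28%, 1.75% and 1.82% in the Fkbp4 knockdown. The largest such ratio among the 9 genes other than Trim63 was that of Irs2 at day 5 in the Fkbp5 knockdown, 12 against 23 reads, which is under 50.

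Promoters were read from RefSeq sequence of build GRCm38.p6, as 300 bases from 250 before to 50 after each annotated start, for 9 of the 10 genes (13 windows; Fbxo32 had no entry). They were searched on both strands for 3 motifs: the FoxO element GTAAACA, the E-box CAGCTG that MyoD and myogenin bind, and the glucocorticoid response element, written as ACA and TGT with 3 bases between them, a G 2 bases before and a C 2 bases after. The last was included because FKBP4 and FKBP5 are known as co-chaperones of the glucocorticoid receptor, which with FoxO1 is known to act on the Trim63 promoter. Of all 32851 promoters, 3.65% held the first, 16.3% the second and 0.475% the third. The Trim63 window (chr4:134314870-134315169, plus strand) held all 3. The glucocorticoid response element lay 208, the FoxO element 194 and the E-box 72 bases before the start. They are shown because Trim63 rose most, with the motif in capitals, the FoxO element reading TGTTTAC since it lies on the minus strand.
Trim63 glucocorticoid response element: cctggctctGAACAGTCTGTTCttgtttac
Trim63 FoxO element: acagtctgttctTGTTTACgacccccacgg
Trim63 E-box: ctgcggaatgctCAGCTGgtcccctcctgg
The glucocorticoid and FoxO elements do not overlap and are 1 base apart. Elsewhere in the list, 1 of the Akt2 windows (chr7:27607086-27607385, plus strand) held the E-box 229 bases before the start, and 1 of the Akt1 windows (chr12:112674835-112675134, minus strand) held the FoxO element 161 bases before it. They are shown beside those of Trim63 since both genes rose as well.
Akt2 E-box: gtggggagtggaCAGCTGcaggaatgagac
Akt1 FoxO element: aatctaccctctTGTTTACactcctggtga
The other 10 windows held none of these letters. Among them were the remaining windows of Akt1 and Akt2, and those of Foxo1 and Foxo3, which also rose. A match is a run of letters, and binding was not measured.

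The rest of the pathway was followed in 7 lists of 141 genes, of which 131 were tested. The lists were chosen with earlier results of these data known, so their shares of calls are descriptive. Relative to day 0, 82 of the 131 passed at day 3, 56 higher and 26 lower (62.6%, against 52.8% of all genes). At day 5, 84 passed, 59 higher and 25 lower (64.1%, against 58.3%). The median log2 fold changes were 0.19 and 0.17. Day 5 against day 3 gave 15 calls, 9 higher and 6 lower (11.5%, against 6.14% of all genes). There were 7 or 8 calls without the Fkbp4 knockdown library of day 3 or day 5 or the control library of day 5. The number was 3 without the genotype term and 3 with the whole control left out. All 8 muscle markers rose over the same days, and Myog among them is also on the list of ligases and atrophy genes.

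Receptors and adaptors gave 5 higher and 3 lower of 12 tested at day 3. Over all genes, 26.7% were higher and 26.1% lower (52.8% together). Igf2r, the receptor that clears IGF-2, rose (1.88, edgeR adjusted p = 2.61e-06), and Grb14, an adaptor that inhibits the insulin receptor, fell (-1.09, edgeR adjusted p = 0.00388). Of the PI3-kinase subunits and lipid phosphatases, 7 of 12 rose and 2 fell. The steepest was Inpp4b, a phosphatase that removes a product of PI3-kinase, at 0.263, 13.9 and 28.1 CPM at days 0, 3 and 5 in the Fkbp5 knockdown, 1.2, 17.1 and 24.2 CPM in the Fkbp4 knockdown, and 0.221, 16.3 and 28.1 CPM in the control (log2 fold change at day 3 4.66, edgeR adjusted p = 2.5e-06). The regulatory subunit Pik3r3 (1.66) and the PI3-kinase inhibitor Pik3ip1 (2.15) rose too (edgeR adjusted p = 2.75e-05 and 3.64e-05), while the catalytic subunit Pik3cb fell (-0.90, edgeR adjusted p = 0.00268).

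Among kinases and inhibitors of Akt and the mTOR complexes, 7 of 21 rose and 4 fell at day 3. Over all genes 26.7% rose and 26.1% fell (52.8% together), and the lists of this paragraph lay near that joint share. Rptor, the scaffold of mTOR complex 1, rose (0.76, edgeR adjusted p = 0.000193) and the Akt-binding pseudokinase Trib3 fell (-1.10, edgeR adjusted p = 0.00376). In the growth arm 6 of 18 rose and 4 fell: the translation repressor Eif4ebp1 (-1.11, edgeR adjusted p = 3.35e-05) and the Akt-related kinase Sgk1 (-1.87, edgeR adjusted p = 8.08e-07) were among the lower ones. Of other FoxO factors and regulators 4 of 13 rose and 3 fell. Foxo6 (3.51, edgeR adjusted p = 1.27e-07) and Foxo4 (1.08, edgeR adjusted p = 6.09e-05) rose beside Foxo1 and Foxo3, and the ligase subunit Skp2, which targets Foxo1, fell (-1.11, edgeR adjusted p = 5.24e-05).

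Of other muscle ligases and atrophy genes, 15 of 33 rose and 7 fell at day 3, where 26.7% of all genes rose and 26.1% fell. The sister genes of Trim63 were among those that rose: Trim54 (2.91, edgeR adjusted p = 1.31e-06) and Trim55 (1.85, edgeR adjusted p = 2.48e-06), which encode the other MuRF proteins. Asb2, which targets filamins and desmin, rose as steeply as Trim63 is fitted to (4.98, edgeR adjusted p = 1.05e-06). Fbxo30 fell (-0.60, edgeR adjusted p = 0.000618). FoxO targets were mixed, with 12 of 22 higher and 3 lower. The repressor Bcl6 (2.14, edgeR adjusted p = 2.91e-07) and the mitophagy kinase Pink1 (1.43, edgeR adjusted p = 8.98e-07) rose, and Pdk4, which slows glucose oxidation, fell (-1.53, edgeR adjusted p = 0.000217).

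**Figure D5:**
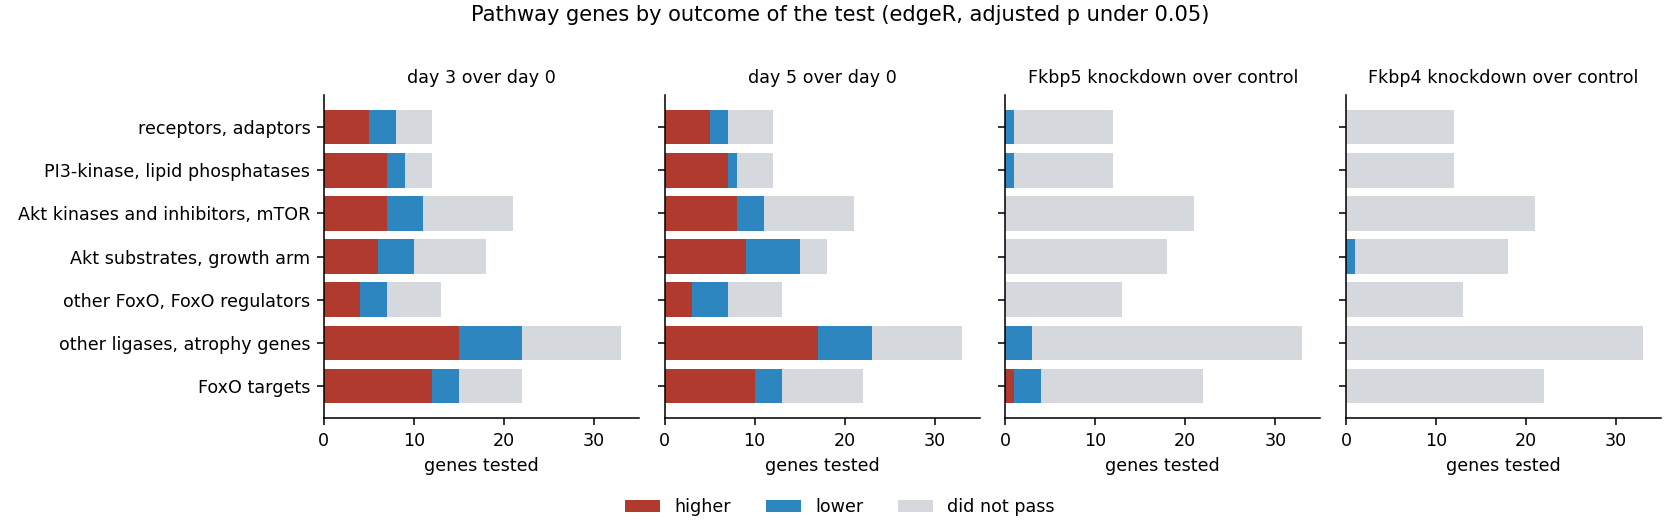
Number of genes tested (x axis) in each of the 7 pathway lists (rows) that were higher, lower or did not pass at an edgeR adjusted p of 0.05, for day 3 and day 5 over day 0 and for each knockdown over the control. Calls fill much of the day panels, 82 and 84 of 131 genes, and little of the knockdown panels, 9 and 1 of 131.

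In the Fkbp5 knockdown 9 of the 131 pathway genes passed relative to the control, 1 higher and 8 lower (6.87%, against 2.18% of all genes), with a median log2 fold change of -0.05. The adaptor Shc1 was 77.6, 80.6 and 81.8 CPM in the Fkbp5 knockdown at days 0, 3 and 5, against 138, 134 and 135 CPM in the control (-0.76, SE 0.10, edgeR adjusted p = 0.00748). The groups did not overlap. Pik3cb, the beta catalytic subunit of PI3-kinase, was 6.32, 4.54 and 6.58 CPM in the Fkbp5 knockdown, against 14.6, 8.05 and 13.3 CPM in the control (-1.02, SE 0.20, edgeR adjusted p = 0.0306). The others that fell were the FoxO targets Bcl2l11 (-0.94), a pro-apoptotic BH3 protein, Ulk2 (-0.72), an autophagy kinase, and Bcl6 (-0.52), the ligases Fbxo30 (-0.51) and Fbxo40 (-1.90), which is known to target Irs1, and the transcription factor Runx1 (-0.55), with edgeR adjusted p of 0.0231 to 0.0492. Fbxo40 averaged 3.86 CPM, under the level set for naming, and is named after its values were seen. Bnip3, a mitophagy receptor and also a FoxO target, was the one gene that rose (0.76, edgeR adjusted p = 0.0281). Of the 22 FoxO targets tested, 1 was higher, 3 were lower and 18 did not pass, with a median log2 fold change of 0.03. The count of 9 pathway genes rests on every control library and on the last Fkbp5 knockdown library. It was 1 without the Fkbp5 knockdown of day 5, the library with 10.1% mitochondrial counts. It was also 1 without the control of day 0, day 3 or day 5. Calls over all genes fell as well in these fits, from 272 to 40, 113, 51 and 54 in that order. With mitochondrial genes left out of all libraries, the pathway count was still 9. It was 4 or 5 without the Fkbp5 knockdown of day 0, the Fkbp4 knockdown of day 3 or that of day 5, and 5 with DESeq2.

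In the Fkbp4 knockdown 1 of 131 passed, 0.763% against 1.08% of all genes. Bag3, a co-chaperone of Hsp70 in muscle, was 37.3, 66.1 and 65.3 CPM at days 0, 3 and 5 in the Fkbp4 knockdown, against 63.0, 95.1 and 101 CPM in the control (-0.63, SE 0.10, edgeR adjusted p = 0.0195). This call was lost in 6 of the 9 fits without 1 library, those without any 1 of the Fkbp4 knockdown or control libraries. Between the knockdowns 29 of 131 passed, 9 higher and 20 lower in the Fkbp5 knockdown (22.1%, against 13.4% of all genes). The 7 ligases and atrophy genes among them were all lower in the Fkbp5 knockdown, Trim54 (-0.75, edgeR adjusted p = 0.0165) and Trim55 (-0.50, edgeR adjusted p = 0.0356) included, and so were 4 of the 8 muscle markers, Myh3, Ckm, Tnnt3 and Acta1. The part of those markers in the ligase differences was not tested. Without the Fkbp5 knockdown library of day 5 the 29 calls became 7, without that of day 0 they became 19, and without the Fkbp4 knockdown libraries of days 0, 3 and 5 they became 17, 11 and 10.

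The genes whose profile over the 9 libraries was most like that of a member were found by Pearson correlation of log2 CPM among 10256 protein-coding genes with a mean of at least 5 CPM. The 9 libraries share their days and genotypes, so the coefficients are descriptive. Trim63 was closest to the anion exchanger gene Slc4a3 (r = 0.998), Fbxo32 to Serinc2 (0.994), Foxo3 to Anks3 (0.99) and Irs1 to the histone methyltransferase Suv39h1 (0.989). Akt1 and Foxo1 followed with Evi5 (0.984) and the amino acid transporter Slc7a2 (0.983), then Phlpp2 with the channel kinase Trpm7 (0.974) and Irs2 with Ccnyl1 (0.974). Phlpp1 had the least similar partner, Pde12 (0.911). Among the members themselves, Trim63 and Irs1 mirrored each other (r = -0.98), Phlpp2 went with Irs1 (0.91), and Akt2 went with Trim63 (0.92) and Fbxo32 (0.90), while for Phlpp1 no coefficient with another member lay beyond 0.62.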

How the data were processed

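Messenger RNA of C2C12 cells was sequenced in 9 libraries of unstranded TruSeq polyA RNA. The files hold raw counts of reads for each Ensembl gene, as deposited by the authors. The submitters' processing notes name featureCounts 1.4.6, Subread, HISAT2 2.0.2, CASAVA 1.8 and build mm10; the annotation and the handling of multiply aligned reads are not given in the sources used here. Of 47728 identifiers, 47309 were matched to GENCODE symbols. Genes were filtered with filterByExpr, scaled by TMM and tested with edgeR 4.0.16 (quasi-likelihood, two-sided, genotype and day as additive terms over the 9 libraries, 4 residual degrees of freedom) in R 4.3.3, with Benjamini-Hochberg adjustment over 12498 genes and a threshold of 0.05; limma 3.58.1 and DESeq2 1.42.0 were alternatives. The fit was tested on simulated data. RPKM used merged exon lengths. Counting intervals are exact (Clopper-Pearson), cover counting error only, and treat reads as independent molecules. Pathway genes were named when they passed, at most 6 per list by size of change with a mean of at least 5 CPM. Members and lists were chosen with earlier results of these data known. Some genes of the pathway and of the likeness search are not reported here by name.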

Additional observations from a re-analysis of the deposited data

Results flagged for a closer look

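Akt1 was the one gene of the list whose level differed between the 2 knockdowns by a direct test. It was lower in the Fkbp5 than in the Fkbp4 knockdown (log2 fold change -0.39, SE 0.093, edgeR adjusted p = 0.0225), lower on 3 of 3 days. A call was no rarity in this comparison, where 13.4% of all genes passed and 6.21% were lower, against 1 of these 10. Over the 21 alternatives the value stayed between -0.42 and -0.36, and the adjusted p ran from 0.00522 to 0.826. Each knockdown differed from the control by less, -0.13 and 0.26, and neither passed.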

How the results depend on the processing

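Over 21 alternatives, the calls of Akt2, Foxo3, Fbxo32 and Trim63 at days 3 and 5 relative to day 0 held throughout, as did those of Irs1. The counts of called genes at day 3 and day 5 relative to day 0, 9 each, ranged from 7 to 9, and both knockdown counts relative to the control stayed 0 under every alternative run. Between the Fkbp5 and the Fkbp4 knockdown the count of 1 became 2 with genes of low counts kept (Akt1 and Irs2) and 0 without the day term, with only the 6 libraries compared, and with day 0, day 3 or day 5 left out; leaving out 1 library at a time gave 0 to 1. From day 3 to day 5 the count of 2 became 1 with limma (Irs1), without the genotype term, with the control left out and with the Fkbp4 knockdown left out (Trim63 each time); leaving out 1 library gave 1 to 2. Scaling by other factors moved no count by over 1.5 times, though upper-quartile scaling ended the call of Akt1 at day 5. Leaving out a whole genotype ended the calls relative to day 0 of Akt1 at day 5 (edgeR adjusted p = 0.0649 without the Fkbp4 knockdown, 0.185 without the control), Foxo1 at day 3 (0.0506 without the control), Irs2 at day 3 (0.0808 without the control) and Phlpp2 at day 3 (0.0669 without the Fkbp5 and 0.255 without the Fkbp4 knockdown) and day 5 (0.0635 without the Fkbp4 knockdown). Without the genotype term, Irs2 at day 3 gave 0.0708.

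None of the direction changes touched a called value. In the Fkbp5 knockdown relative to the control, Phlpp1 (0.01) was -0.01 with no low-count filter and -0.07 without day 0, and ran from -0.08 to 0.10 when leaving out 1 library; Akt2 (0.12) was -0.06 without day 0 (-0.03 to 0.21), and Irs1 (-0.08) was 0.10 (-0.19 to 0.08). In the Fkbp4 knockdown, Phlpp2 (0.08) was -0.16 without day 0 (-0.11 to 0.18), Irs2 (-0.02) was 0.09 without day 0 and 0.01 without day 3 (-0.18 to 0.13), Trim63 (-0.09) was 0.04 without day 3 (-0.31 to 0.02), Foxo3 (-0.05) was 0.07 without day 5 (-0.19 to 0.08), and Irs1 (0.08) ran from -0.01 to 0.18. Between the knockdowns, Foxo1 (-0.05) was 0.17 without day 0 (-0.19 to 0.09) and Fbxo32 (-0.04) was 0.02 (-0.13 to 0.05). Over time, Phlpp1 at day 3 (0.08) was -0.03 without the control (0.00 to 0.18). From day 3 to day 5, Akt2 (0.00) was 0.00 with the stricter filter and without the genotype term and 0.02 without the control (-0.08 to 0.09), Foxo3 (0.02) was -0.14 without the control (-0.11 to 0.09), and Fbxo32 (-0.02) ran from -0.12 to 0.04. The cause was not tested.

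Over all genes, calls in the Fkbp5 knockdown numbered 272, against 3 without the day term and 866 with no filter; in the Fkbp4 knockdown 135, against 0 and 690; between the knockdowns 1671, against 4 without the day term; and from day 3 to day 5 767, against 127 without the genotype term and 1578 with no filter. The tests of a change with time called 4 and 5 genes, and 107 and 95 with no filter. Pathway counts, added as alternatives after seeing the data, with no filter and without the day term were 15 and 0 for the Fkbp5 knockdown and 8 and 0 for the Fkbp4 knockdown. With the longest transcript as length, the mean ratios of related genes moved by less than the spread between libraries, but Trim63 over Fbxo32 at day 5 in the Fkbp4 knockdown was 1.19 in place of 0.79. That spread includes the change over the days, so it is a wide yardstick. The ratio of Irs2 to Irs1 could not move, since both lengths are the same for each of these genes. Pairing by replicate number was not possible because no group has a second library to carry one. The day term of the main fit already compared libraries of the same day. Depth limits Irs2 (12 to 58 reads) and Trim63 at day 0 (1 or 2 reads).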

Other observations

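The targets of the knockdowns themselves changed over the days. Relative to day 0, Fkbp5 was lower at day 3 (log2 fold change -1.35, edgeR adjusted p = 0.000417) and did not pass at day 5, and it was higher at day 5 than at day 3 (0.93, edgeR adjusted p = 0.0367). Fkbp4 was lower at day 3 (-0.89, edgeR adjusted p = 7.37e-05) and day 5 (-0.96, edgeR adjusted p = 3.69e-05). Their partner Hsp90aa1, the inducible Hsp90, fell as well (-0.60 at day 3, edgeR adjusted p = 0.000527; -0.79 at day 5, edgeR adjusted p = 6.04e-05), in the same libraries in which Akt2, Fbxo32 and Trim63 rose.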
